A study of Homo sapiens with 6 samples.

Results

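The genes described here encode 8 proteins that set how long mRNAs with AU-rich or stem-loop elements in the 3′ untranslated region (UTR) last: the zinc-finger proteins ZFP36 (tristetraprolin), ZFP36L1 and ZFP36L2, the AU-binding proteins HNRNPD (AUF1), ELAVL1 (HuR) and KHSRP (KSRP), and the Roquin proteins RC3H1 and RC3H2. They were taken by symbol from a table of 19755 protein-coding genes, and all 8 were found. RNA sequencing was run on total RNA from 3 control libraries and 3 libraries of cells given 1000 ng/ml lipopolysaccharide (LPS, the endotoxin of Gram-negative bacteria), all labelled 12 h. The labels name both EA.hy926, an established line made by fusing an umbilical vein endothelial cell with the lung carcinoma line A549, and human umbilical vein endothelial cells, and all cells were grown in DMEM with 10% fetal bovine serum. The genotype tag reads WT for the control libraries and LPS-induced for the LPS libraries. Control titles carry no LPS, but the treatment field reads Sepsis in both groups, so the groups were taken from the titles. The labels do not say that the libraries came from separate cultures, and the p-values below reflect library-to-library spread alone, some or all of which could be technical.

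Proteins of the ZFP36 family bind AU-rich elements and recruit the CCR4-NOT deadenylase, which shortens the poly(A) tail and starts decay. ZFP36 is known as an immediate-early gene induced by endotoxin in macrophages, and the family limits the output of cytokine mRNAs and of the ZFP36 mRNA itself. KHSRP and HNRNPD are also tied to decay, ELAVL1 protects many of the same mRNAs, and the Roquin proteins bind stem-loops in mRNAs such as those of ICOS and TNFRSF4.

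The cells were checked against marker genes. All 7 endothelial markers had values above 0, with a summed level of 273 to 364 FPKM (fragments per kilobase of transcript, scaled to library size) in control and 317 to 395 in LPS libraries. EPCAM and CDH1, which define epithelial cells, were near 0, and NKX2-1 was at 0 in all libraries, while the keratins carried a 7-gene epithelial sum of 107 to 120 FPKM in control and 72.4 to 88.1 in LPS. The leukocyte markers PTPRC and CD3E were at 0, and the 5-gene leukocyte sum was 8.11 to 14.1 FPKM in control and 12.0 to 17.1 in LPS. CD68 and LAPTM5 carried most of that sum. CD68 had 3.70 to 7.61 FPKM in control and 4.30 to 6.45 in LPS. LAPTM5 was higher in every LPS library, at 3.84 to 6.22 in control and 7.33 to 10.4 in LPS. CD14 was lower in every LPS library, at 0.484 to 1.14 and 0.309 to 0.431. All 6 fibroblast and smooth muscle markers also had values above 0, with a sum of 2681 to 3089 FPKM in control and 2896 to 3097 in LPS. COL1A1, at 1277 to 1548 FPKM in control and 1457 to 1565 in LPS, and COL1A2, at 1176 to 1318 and 1135 to 1288, carried most of it. The epithelial sum was lower in every LPS library. The endothelial markers PECAM1, TEK and ERG were higher in every LPS library, while CDH5, VWF, KDR and TIE1 overlapped. The part of these shifts in the results on the 8 genes was not tested. The files give no read counts, so depth is unknown. Between 11078 and 11179 protein-coding genes reached 1 FPKM per library.

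Several of these proteins are encoded by mRNAs that hold AU-rich elements themselves. The sites below are shown because ZFP36 family proteins prefer the nonamer UUAUUUAUU, and each ZFP36 family mRNA and ELAVL1 held 1 copy of it in the 3′ UTR of its most abundant complete transcript. CSF2 and CXCL2 are shown as cytokine mRNAs with long arrays of overlapping copies. Each line gives the sense strand in DNA letters, 5′ to 3′, from the annotated transcript sequence, with positions on GRCh38. Capitals mark the nonamer or the run of overlapping nonamers.
ZFP36: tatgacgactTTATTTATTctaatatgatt
ZFP36L1: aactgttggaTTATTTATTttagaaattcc
ZFP36L2: actatttaacTTATTTATTatcttgtgaaa
ELAVL1: atttatgtatTTATTTATTgaagtgtgaaa
CSF2: aaatatTTATTTATTTATTTATTtaagttc
CXCL2: ctatTTATTTATTTATTTATTTATTtgttt
They lie at chr19:39409196-39409225 (plus strand) for ZFP36, chr14:68788076-68788105 (minus) for ZFP36L1, chr2:43223447-43223476 (minus) for ZFP36L2, chr19:7961827-7961856 (minus) for ELAVL1, chr5:132076077-132076106 (plus) for CSF2 and chr4:74097583-74097612 (minus) for CXCL2. The ZFP36, ZFP36L1, ZFP36L2 and ELAVL1 windows each hold a single 9-base match, against a 17-base run in CSF2 and a 21-base run in CXCL2.

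Motifs were counted on the sense strand, overlaps included, in the same 3′ UTRs of 11737 of the 12068 tested genes, using the GENCODE 29 annotation. Of these UTRs, 67.9% held the pentamer AUUUA, 31.4% the heptamer UAUUUAU and 8.12% the nonamer, which contains the heptamer. The 713-base UTR of ZFP36-203 held 5 pentamers and 3 heptamers. As many heptamers stood in 1.46% of UTRs of like length, meaning 0.8 to 1.25 times as long. ZFP36L1-202 (1871 bases) and ZFP36L2-201 (1917 bases) also held 3 heptamers each, a number met by 4.20% and 4.76% of UTRs of like length. ELAVL1-201 held 5 heptamers in 4904 bases, met by 5.01%. A nonamer was held by 23.8% of UTRs of like length for ELAVL1, 5.44% for ZFP36, 9.38% for ZFP36L1 and 10.1% for ZFP36L2. The 13 pentamers of ELAVL1-201 and the 5 of ZFP36L2-201 were met by 42.1% and 41.3% of such UTRs. The 8 of ZFP36L1-202 and the 5 of ZFP36-203 were met by 14.4% and 6.28%. RC3H1-201 held 21 pentamers but only 2 heptamers in 7507 bases, a length at which 79.9% of UTRs held a heptamer. The UTRs of HNRNPD-203, KHSRP-201 and RC3H2-205 held none of the 3 motifs. Among UTRs of like length, 43.5%, 69.3% and 21.1% held a pentamer, in the same order. The isoform HNRNPD-201 held 2 pentamers in 1687 bases.

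The levels of the 8 genes were compared per length, as mean FPKM over the 6 libraries. KHSRP was highest at 71.9 FPKM, followed by ZFP36L1 at 39.96, ZFP36L2 at 24.1, ZFP36 at 18.2, RC3H2 at 12.5, ELAVL1 at 9.82, HNRNPD at 4.74 and RC3H1 at 4.51. The range over libraries of KHSRP lay above that of ZFP36L1. From ZFP36L1 to RC3H2 each neighbour's range overlapped the next, while RC3H2, ELAVL1 and HNRNPD were separated from one another. HNRNPD and RC3H1 overlapped.

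With LPS, none of the 8 genes passed the adjusted test (limma on log2(FPKM + 0.5), Benjamini-Hochberg over 12068 genes, threshold 0.05), and 0.058% of all tested genes did. All 8 had control and LPS ranges that overlapped, whereas the groups did not overlap in 17.4% of tested genes. At an unadjusted p under 0.05 there were 2 of the 8, ZFP36 and ZFP36L2, both with the lower mean in LPS, beside 5.26% of all tested genes in that direction. The median log2 difference was -0.01 over the 8 genes and -0.01 over all tested genes. In these bulk libraries fewer cells of a type and less RNA per cell cannot be told apart.

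ZFP36, the founding member of its family (chr19:39406813-39409412, plus strand, GRCh38 as in the files), had 18.1, 24.5 and 25.3 FPKM in control 1 to 3 and 11.6, 19.0 and 10.6 FPKM in LPS 1 to 3. LPS 1 and LPS 3 lay below every control library, while LPS 2 lay above control 1. The means were 22.6 ± 3.96 (SD, n = 3) and 13.7 ± 4.602 (n = 3). The log2 difference, LPS minus control, was -0.73 (SE 0.23, 95% interval -1.28 to -0.19), with an adjusted p of 0.351 by limma. The unadjusted p, 0.0147, was not under 0.05 without control 3 or without LPS 3.

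ZFP36L2, a paralog with the same pair of zinc fingers (chr2:43222402-43226617, minus strand), had 24.6, 29.6 and 27.3 FPKM in the control libraries and 19.3, 25.9 and 17.8 FPKM in the LPS libraries. As with ZFP36, LPS 1 and LPS 3 lay below all controls and LPS 2 above control 1. The means were 27.2 ± 2.53 and 21.0 ± 4.31 FPKM (SD, n = 3 each), a log2 difference of -0.38 (SE 0.16, 95% interval -0.74 to -0.02, adjusted p = 0.460 by limma). Its unadjusted p, 0.0417, was under 0.05 in 10 of 16 alternatives. It was above 0.05 without control 2, control 3, LPS 1 or LPS 3, with median-of-ratios scaling (0.0668) and with quantile normalization (0.0597).

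ZFP36L1, the third paralog and the most abundant of the family (chr14:68787660-68796253, minus strand), had 58.5, 23.4 and 52.0 FPKM in control and 47.6, 32.8 and 25.4 FPKM in LPS. Control 2 was the lowest of all 6 libraries. Its means of 44.6 ± 18.7 and 35.3 ± 11.3 FPKM (SD, n = 3 each) gave a log2 difference of -0.28 (SE 0.36, 95% interval -1.12 to 0.57, adjusted p = 0.824 by limma). Without control 2 the difference was -0.68, with an unadjusted p of 0.0315 by limma, and without control 1 it was -0.03. Its within-group SD of 0.59 on the log2 scale was larger than that of 97.1% of tested genes, and ZFP36 stood at the 85.7th percentile.

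Summed over the family, the level was 101, 77.5 and 105 FPKM in control and 78.5, 77.7 and 53.8 FPKM in LPS, or 94.4 ± 14.7 against 70.0 ± 14.04 (SD, n = 3 each). LPS 1 and LPS 2 lay just above control 2, so these sums also overlapped. ZFP36L1 made up 30.2% of the sum in control 2 and 60.7% in LPS 1, the extremes.

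**Figure D1:**
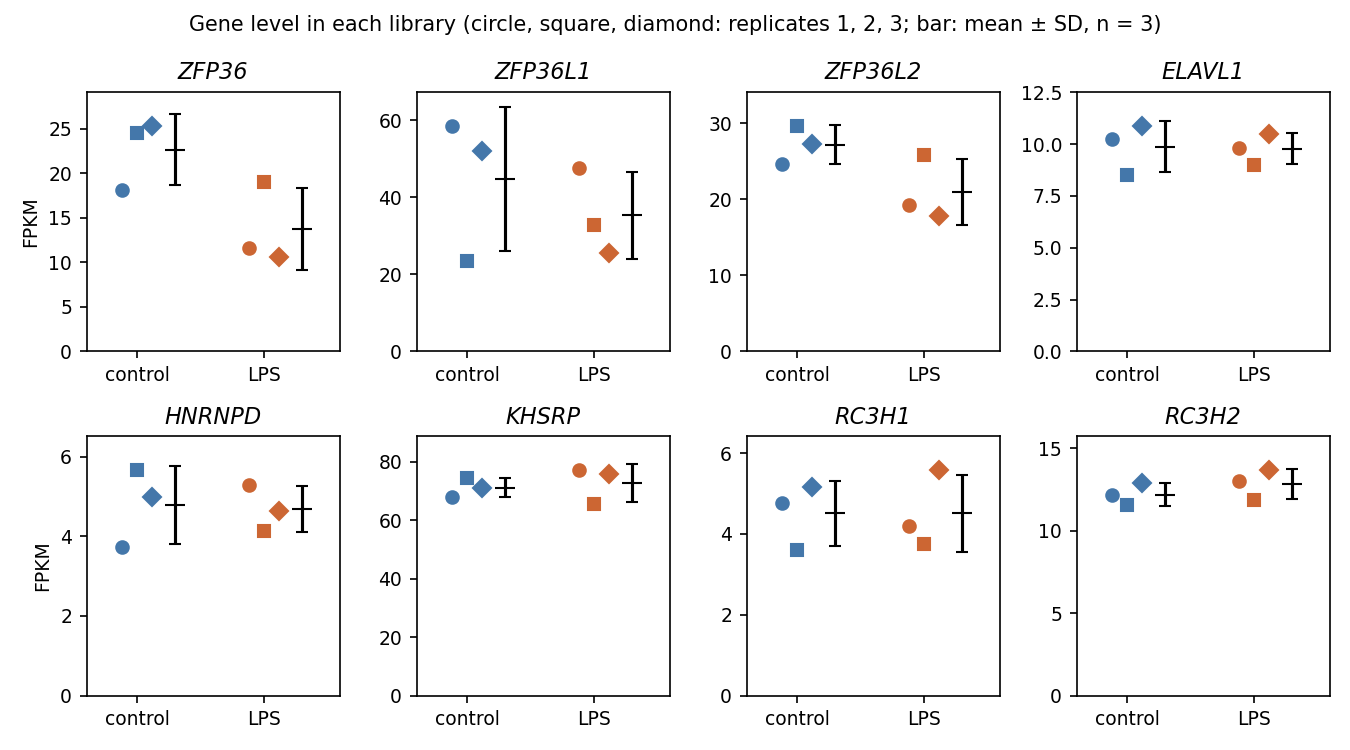
FPKM of each of the 8 genes in 3 control (blue) and 3 LPS (orange) libraries, with circles, squares and diamonds for replicates 1, 2 and 3 and bars for the mean ± SD. ZFP36 and ZFP36L2 are low in LPS 1 and LPS 3 but not in LPS 2, control 2 is the lowest library for ZFP36L1, and the groups overlap in every panel.

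The genes with the library profile most like that of ZFP36 were sought by the root mean square difference of log2 values, each gene centred on its mean over the 6 libraries. The nearest were ID1, an inhibitor of basic helix-loop-helix factors (difference 0.120), COL4A5, a basement membrane collagen chain (0.135), and MAN1C1, a Golgi mannosidase (0.136). ID1 had 89.0, 125 and 118 FPKM in control and 70.4, 90.8 and 57.0 FPKM in LPS. ZFP36L2 ranked 57 of 12067 genes by this measure (0.221), while ZFP36L1 ranked 10568 (0.660). ZFP36L1 had its lowest value in control 2, where ZFP36 and ZFP36L2 were not low.

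The log2 differences of the other 5 genes were at most 0.07 in size. HNRNPD, of which several isoforms promote decay (chr4:82352498-82374503, minus strand), had 3.73, 5.66 and 4.98 FPKM in control and 5.28, 4.14 and 4.63 FPKM in LPS. Control 1 was lowest and control 2 highest, so the control range held all LPS values. The log2 difference was -0.02 (SE 0.17, 95% interval -0.42 to 0.39, adjusted p = 0.978 by limma). HNRNPD has the processed pseudogenes HNRNPDP1 and HNRNPDP2, with which reads could be shared, and an antisense gene, AC124016.1, overlaps it.

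ELAVL1, the stabilising counterpart (chr19:7958573-8005659, minus strand), had 10.2, 8.49 and 10.9 FPKM in control and 9.82, 9.001 and 10.5 FPKM in LPS. The second library of each group was the lower one, and the LPS values lay within the control range. The log2 difference was -0.01 (SE 0.13), with a 95% interval of -0.31 to 0.29. The antisense gene AC010336.6 overlaps ELAVL1, and strand use in counting is not given in the sources used here.

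KHSRP, which recruits the exosome and other decay enzymes (chr19:6413348-6424794, minus strand), had 67.9, 74.4 and 70.9 FPKM in control and 77.1, 65.3 and 75.9 FPKM in LPS. LPS 2 was the lowest library and LPS 1 the highest. The log2 difference was 0.03 (SE 0.10), with a 95% interval of -0.20 to 0.26. KHSRP has a processed pseudogene, KHSRPP1.

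RC3H1 (Roquin-1, chr1:173931138-174022297, minus strand) had 4.76, 3.61 and 5.17 FPKM in control and 4.20, 3.75 and 5.58 FPKM in LPS, with means of 4.51 in both groups. Its 95% interval ran from -0.44 to 0.43 on the log2 scale. RC3H2 (Roquin-2, minus strand of chromosome 9) had 12.1, 11.5 and 12.9 FPKM in control and 13.0, 11.9 and 13.7 FPKM in LPS, a log2 difference of 0.07 (SE 0.11, 95% interval -0.18 to 0.32). In both groups the second library was the lowest and the third the highest for RC3H2. The span given for RC3H2 in the files, chr9:122804106-122905359, extends beyond the annotated gene into PDCL on the same strand, so its reads may be less cleanly assigned.

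**Figure D2:**
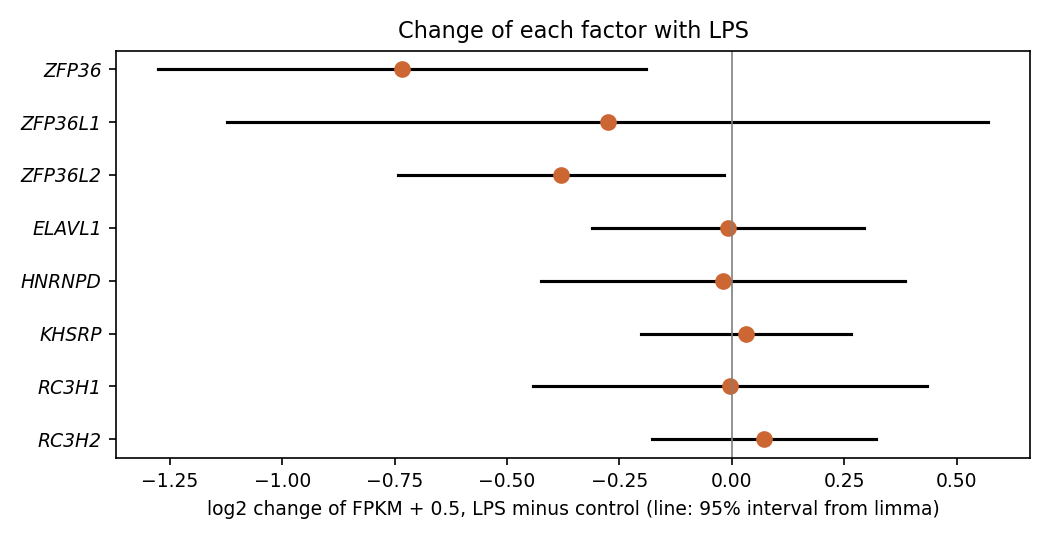
Log2 difference of FPKM + 0.5 between LPS and control for each of the 8 genes (points) with 95% intervals from limma (lines), 3 libraries per group. The intervals of ZFP36 (-1.28 to -0.19) and ZFP36L2 (-0.74 to -0.02) lie below 0 before adjustment for 12068 genes, that of ZFP36L1 is the widest, and the other 5 points lie within 0.07 of 0.

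The table of protein-coding transcripts lists 42 isoforms of these genes, of which 19 had a mean of at least 1 FPKM, 23 could be tested and none passed, against 0.126% of 20563 transcripts tested. Isoform values of a gene share reads, so a high estimate of one can go with a low estimate of another. At an unadjusted p under 0.05 there was 1 isoform, RC3H2-203, beside 6.44% of all tested transcripts.

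RC3H2-203 had 2.14, 2.46 and 2.49 FPKM in control and 0.0236, 0.0197 and 2.05 FPKM in LPS. It was almost unassigned in LPS 1 and LPS 2, where its share of the RC3H2 total was 0.182% and 0.166%, against 15% in LPS 3 and 17.6% to 21.3% in control. The log2 difference was -1.69 with an adjusted p of 0.741 by limma. Without LPS 3 it was -2.45 (adjusted p = 0.0868), and at a pseudocount of 0.1 it was -2.95 (adjusted p = 0.756). It was smaller at a pseudocount of 1 (-1.19), without LPS 1 (-1.31) and without LPS 2 (-1.30). The unadjusted p by limma, 0.0491, was above 0.05 when any library other than LPS 3 was left out. Its 3′ UTR of 5071 bases held 25 pentamers, 5 heptamers and 2 nonamers. The isoform RC3H2-205, whose 3′ UTR of 129 bases held no pentamer, had 5.52, 4.19 and 5.81 FPKM in control and 6.39, 6.46 and 6.56 FPKM in LPS, with no overlap (log2 difference 0.31, adjusted p = 0.762 by limma). Groups did not overlap in 13.8% of tested transcripts. RC3H2-202 had 2.61, 2.41 and 2.61 FPKM in control and 3.99, 3.97 and 2.28 FPKM in LPS, so LPS 3 stood apart from the other LPS libraries for both RC3H2-202 and RC3H2-203.

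Within the ZFP36 family the isoform estimates differed widely between libraries of the same group. ZFP36L1-202 carried 91.4% to 99.6% of the ZFP36L1 total in control and 93.0%, 18.7% and 75.5% in LPS 1 to 3. In LPS 2 the rest went mainly to ZFP36L1-204, at 25.4 FPKM or 77.4% of the total, and in LPS 3 this isoform had 5.69 FPKM. It was at 0.0829 FPKM in LPS 1 and at most 0.566 FPKM in control. Both isoforms hold 8 pentamers, 3 heptamers and 1 nonamer in their 3′ UTRs.

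ZFP36-202, an incomplete annotated transcript and the most abundant ZFP36 isoform, had 8.29, 23.3 and 14.2 FPKM in control and 7.57, 11.8 and 6.09 FPKM in LPS. ZFP36-203, whose nonamer is shown above, had 6.48, 0.120 and 5.74 FPKM in control and 3.86, 5.16 and 3.75 FPKM in LPS. Control 2 thus had nearly all its ZFP36 signal in ZFP36-202. The minor isoform ZFP36-201 ran from 0.103 to 4.33 FPKM in control and from 0.121 to 1.30 in LPS, and ZFP36L1-201 from 0.0847 to 2.82 and from 0.553 to 3.25. ZFP36L2-201 had 24.6, 24.99 and 27.3 FPKM in control and 19.3, 24.4 and 17.8 FPKM in LPS, all LPS values below the controls (log2 difference -0.33, adjusted p = 0.741 by limma). At this isoform LPS 2 was only slightly below control 1.

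ELAVL1-201 carried 92.1% of the ELAVL1 total on average and had 8.12 to 9.59 FPKM in control and 8.48 to 9.38 in LPS. KHSRP-202, an incomplete transcript of 999 bases, carried 56.0% of the KHSRP total on average, at 38.2, 38.3 and 38.2 FPKM in control and 42.3, 38.3 and 46.0 FPKM in LPS. KHSRP-205 was at 8.76 to 10.2 FPKM in control and at 10.98, 5.82 and 1.26 FPKM in LPS. The low value of KHSRP-205 in LPS 3 stood beside the highest value of KHSRP-201, 27.9 FPKM. HNRNPD-203 had 1.73, 3.29 and 1.25 FPKM in control and 2.80, 2.70 and 1.13 FPKM in LPS, and RC3H1-201 had 1.56, 2.27 and 3.36 FPKM in control and 2.60, 1.41 and 0 FPKM in LPS. HNRNPD-201 had 1.80, 1.52 and 1.80 FPKM in control and 1.26, 1.03 and 1.61 FPKM in LPS. KHSRP-210 was highest in control 2, at 6.03 FPKM, and at most 1.54 FPKM elsewhere. In LPS 3, where RC3H1-201 was listed at 0, RC3H1-202 had its highest value, 3.20 FPKM.

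**Figure D3:**
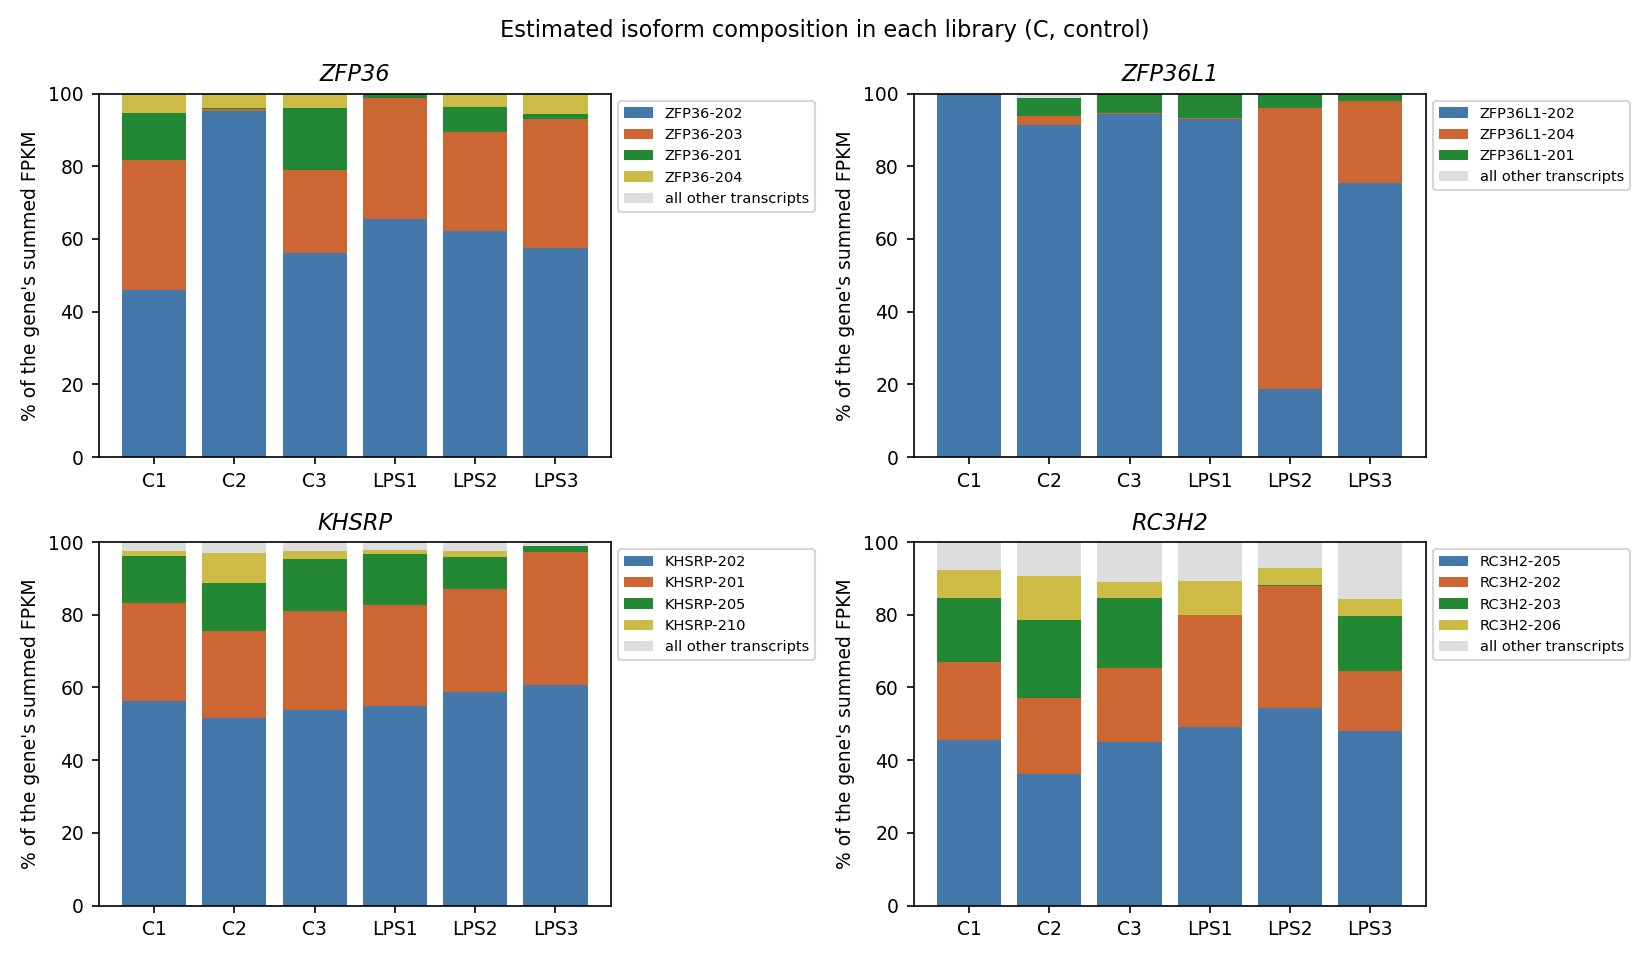
Percent of each gene's summed transcript FPKM assigned to its leading isoforms in each library (C, control) for ZFP36, ZFP36L1, KHSRP and RC3H2. ZFP36-202 fills most of control 2, ZFP36L1-204 holds 77.4% in LPS 2, and RC3H2-203 is nearly missing from LPS 1 and LPS 2 only.

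The proteins with which these factors work were described from lists chosen with results of these data known. Of 24 tested genes for other 3′ UTR-binding proteins, none passed the adjusted test, and 3 had an unadjusted p under 0.05, beside 10.4% of all tested genes. A positive log2 difference was found in 14 and a negative one in 10, with a median of 0.02 beside -0.01 over all tested genes, of which 47.8% had a positive difference. The median was -0.02 without control 2 and -0.01 without LPS 3. ZC3H12A (Regnase-1, an endonuclease that cleaves Roquin-type stem-loops) had 5.25, 5.01 and 5.51 FPKM in control and 10.3, 7.14 and 8.76 FPKM in LPS, without overlap (log2 difference 0.67, adjusted p = 0.236 by limma). PTBP1, a polypyrimidine tract-binding protein, had 22.3 ± 3.94 FPKM in control and 30.8 ± 3.43 in LPS (SD, n = 3 each), and IGF2BP3, an mRNA-stabilising protein, 10.9 ± 2.08 and 8.21 ± 0.565. Neither passed the adjusted test. PCBP2 and PABPC1 were the most abundant, at 95.3 and 138 FPKM in control and 91.6 and 155 in LPS.

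Of 17 tested deadenylation genes, 14 had a negative and 3 a positive log2 difference, with 47.8% positive over all tested genes. The median was -0.17, and -0.077 without LPS 2, and none passed the test, even unadjusted. The CNOT1 scaffold had 24.4 ± 2.34 FPKM in control and 21.7 ± 3.24 in LPS (SD, n = 3 each). CNOT6L, a catalytic subunit, had 4.21 ± 2.002 and 2.81 ± 0.136 FPKM, and control 2 alone, at 6.51 FPKM, was high. CNOT8, another catalytic subunit, had 12.8 and 9.92 FPKM. The antiproliferative adaptor BTG2 went the other way, at 2.69 and 3.78 FPKM, and TOB2 had 18.3 and 19.4 FPKM.

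Of 19 tested decapping and 5′ decay genes, 10 had a positive difference, with a median of 0.07 and none under 0.05 even unadjusted. That median rested on single libraries, at -0.03 without LPS 3, 0.0041 without control 2, 0.03 without control 1 and 0.04 without LPS 2. LSM4, a ring subunit, had 33.6, 7.63 and 27.1 FPKM in control and 26.4, 33.7 and 39.96 FPKM in LPS, and its log2 difference of 0.76 was 0.12 without control 2. LSM7, another ring subunit, had 21.2 FPKM in control and 22.4 in LPS, LSM5 3.03 and 2.55, and LSM6 1.28 and 1.153. The exosome and SKI list of 20 genes includes MPP6, which by its identifier is a membrane-associated guanylate kinase and not the exosome cofactor MPHOSPH6. Of the 20 listed genes, 13 had a negative difference, with a median of -0.06, which was -0.02 without LPS 2 and -0.11 without LPS 3 or control 1. None passed the adjusted test, and 2, TTC37 and HBS1L, had an unadjusted p under 0.05, beside 10.4% of all tested genes. TTC37, the SKI scaffold, had 36.1 ± 1.29 FPKM in control and 28.6 ± 1.94 in LPS (SD, n = 3 each), with a log2 difference of -0.33 and an adjusted p of 0.326 by limma. HBS1L had 8.70 and 6.92 FPKM and the helicase MTREX 13.7 and 11.4 FPKM, each without overlap. EXOSC4, an exosome core subunit, had 18.3 FPKM in control and 17.6 in LPS.

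Of 17 tested kinases, phosphatases and 14-3-3 proteins that act on the ZFP36 family, 8 had a positive and 9 a negative difference, with a median of -0.01. None passed the adjusted test, and 2, MAPK11 and DUSP1, had an unadjusted p under 0.05, beside 10.4% of all tested genes. MAPK11, a p38 kinase, had 10.3, 12.2 and 9.81 FPKM in control and 13.7, 14.1 and 16.5 FPKM in LPS, without overlap (log2 difference 0.44, adjusted p = 0.336 by limma). MAPK13, another p38 kinase, had 2.07 FPKM in control and 1.53 in LPS. YWHAB, a 14-3-3 protein, had 74.0, 40.9 and 24.7 FPKM in control and 33.3, 32.3 and 25.7 FPKM in LPS, with overlap. Its log2 difference of -0.47 was -0.07 without control 1 and -0.85 without control 3. YWHAZ, another 14-3-3 protein, had 140 FPKM in control and 149 in LPS. DUSP1, the phosphatase that switches off p38, had 227, 242 and 249 FPKM in control and 188, 218 and 188 FPKM in LPS, without overlap (log2 difference -0.28, adjusted p = 0.396 by limma). As for ZFP36 and ZFP36L2, LPS 2 was the highest of the LPS libraries for DUSP1.

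**Figure D4:**
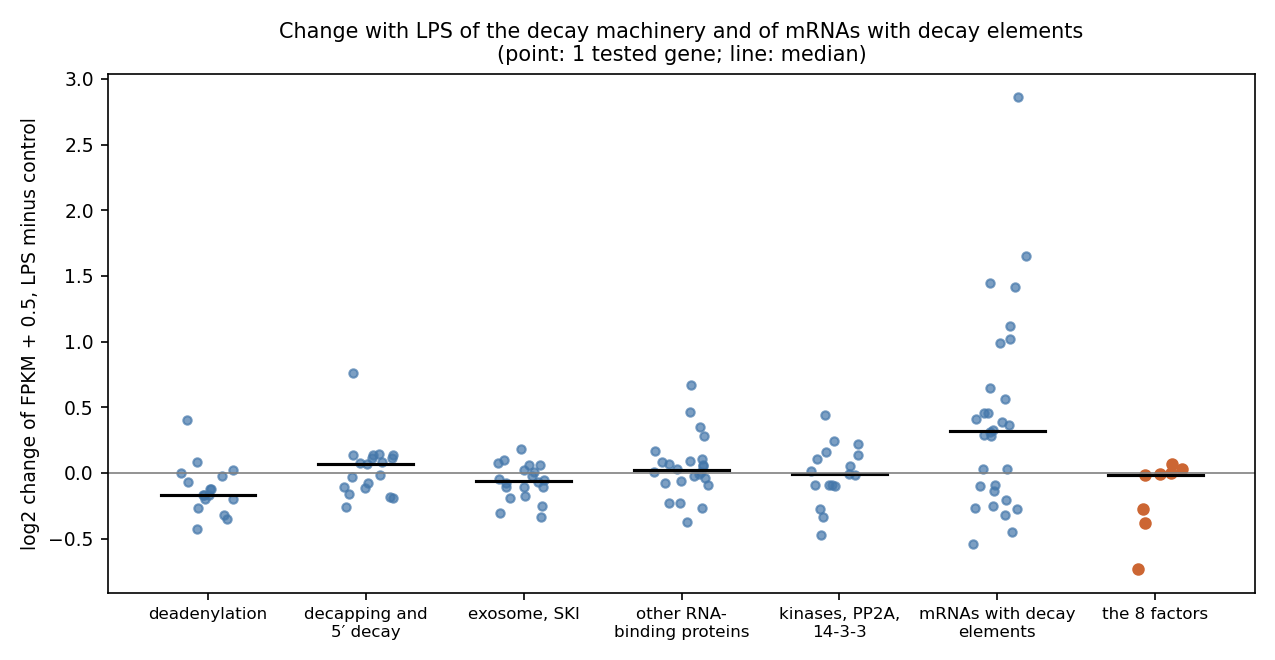
Log2 difference of FPKM + 0.5, LPS minus control, for every tested gene of each list (1 point per gene, line at the median) and for the 8 factors. Medians run from -0.17 for deadenylation to 0.32 for mRNAs with decay elements, and the 8 factors lie between -0.73 and 0.07.

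The last list holds mRNAs known to carry AU-rich or Roquin stem-loop elements, and their binding by the 8 proteins was not measured. The 3′ UTRs counted here for FOS, NFKBID and PLAUR held no pentamer. Of 36 listed, 30 were tested, and none passed the adjusted test. The smallest adjusted p was 0.0830, for CSF2. A positive log2 difference was seen in 20 of the 30, beside 47.8% of all tested genes, and the median was 0.32. At an unadjusted p under 0.05 there were 10 with the higher mean in LPS, beside 5.13% of all tested genes in that direction. The 1 with the lower mean was DUSP1, which is on both this list and the previous one. This list, like the others, was chosen with earlier results of these data known. Enrichment against all tested genes therefore cannot be judged from these counts and was not tested. TNF, the best studied ZFP36 substrate, was under 0.1 FPKM in all 6 libraries and could not be tested, nor could ICOS, which was at 0.

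CSF2, encoding the growth factor GM-CSF, had 0.288, 0.0938 and 0.203 FPKM in control and 8.66, 3.75 and 2.74 FPKM in LPS. All LPS values lay far above the controls (log2 difference 2.86, SE 0.36, adjusted p = 0.0830 by limma, with 0.0404 to 0.270 over the alternatives). CCL2, a monocyte chemokine, had 6.46, 5.698 and 4.31 FPKM in control and 35.1, 14.04 and 11.9 FPKM in LPS (log2 difference 1.65, adjusted p = 0.236). LPS 1 had the highest value of both. TNFRSF4 (OX40), a Roquin substrate, had 0.179 ± 0.0614 FPKM in control and 1.42 ± 0.670 in LPS (SD, n = 3 each), a log2 difference of 1.44 (adjusted p = 0.173 by limma). CSF2 and TNFRSF4 were below 0.5 FPKM in every control library. They met the filter, a mean of at least 0.5 FPKM, only through their LPS libraries, and both are included in the counts and median of this list.

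Not every AU-rich mRNA was higher in LPS. CCND1 and HIF1A, the most abundant of the list, had 259 and 245 FPKM in control and 264 and 203 FPKM in LPS. The following genes were picked after their values were seen. CXCL2, with 8 heptamers and the 21-base run shown above, had 16.5, 16.7 and 19.3 FPKM in control and 15.9, 17.0 and 12.5 FPKM in LPS. PTGS2, with 7 heptamers, had 5.19 FPKM in control and 4.89 in LPS. IL11, also with 7 heptamers and with 6 nonamers, had 1.05, 0.638 and 1.04 FPKM in control and 0.730, 1.14 and 2.96 FPKM in LPS, with a log2 difference of 0.45 (adjusted p = 0.709 by limma) and overlapping groups. CSF2 likewise has 7 heptamers, while CCL2 has none in its 376-base 3′ UTR. FOS, an immediate-early gene like ZFP36, had 89.0, 48.2 and 63.1 FPKM in control and 32.9, 87.6 and 30.1 FPKM in LPS. Among the LPS libraries, FOS was low in LPS 1 and LPS 3 and not in LPS 2, as for ZFP36. The controls differed, since control 1 was the highest control library for FOS and the lowest for ZFP36.

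**Figure D5:**
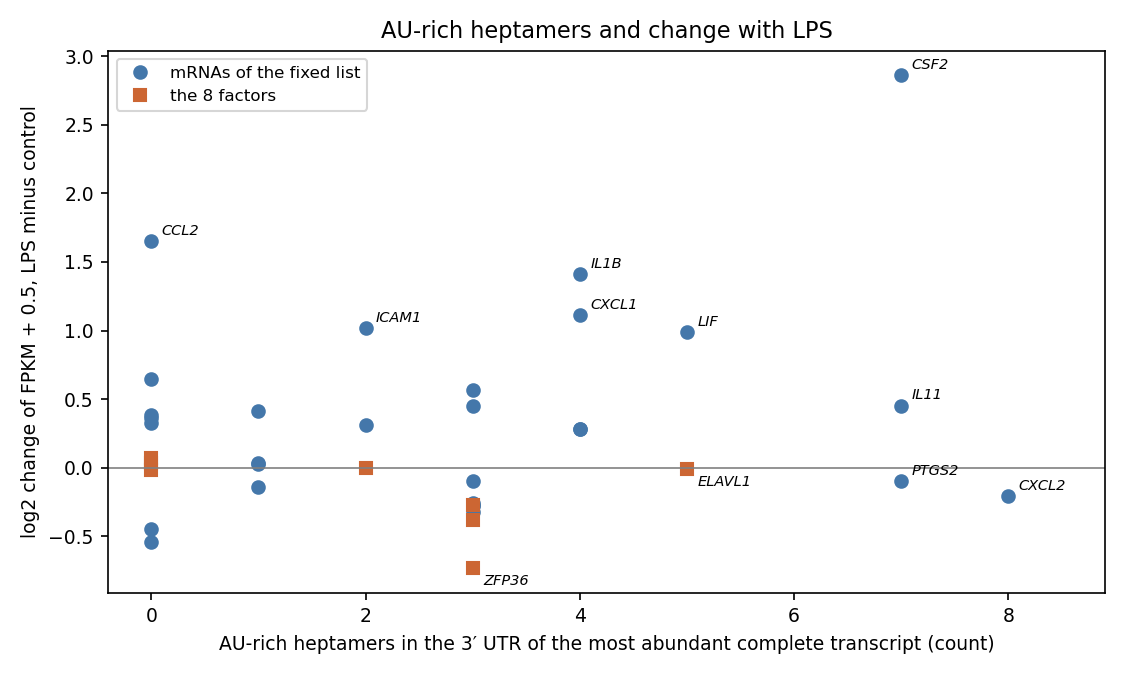
Log2 difference of FPKM + 0.5, LPS minus control, against the number of UAUUUAU heptamers in the 3′ UTR of the most abundant complete transcript, for tested mRNAs with decay elements (blue circles) and the 8 factors (orange squares). Among the 4 list mRNAs with 7 or 8 heptamers, CSF2 is at 2.86 and IL11 at 0.45 while PTGS2 and CXCL2 are below 0, and ZFP36, with 3, is the lowest point.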

How the data were processed

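The deposited tables give FPKM for protein-coding genes, their transcripts and all annotated genes and transcripts in 6 libraries. Per the submitters' processing notes the tools were HISAT2 and StringTie (no version given) and the build was mm9, a mouse build. The identifiers and positions in the authors' FPKM tables are nevertheless those of human Ensembl genes on GRCh38. No whole read counts could be recovered from the FPKM steps, so no count test was run. Genes or transcripts with a mean of at least 0.5 FPKM were tested with limma 3.58.1 in R 4.3.3 on log2(FPKM + 0.5), with a trended variance, two-sided, 3 control against 3 LPS libraries, without a block, Benjamini-Hochberg over all features tested and a threshold of 0.05. A fold change on this scale understates the change of low genes. The script was tested on simulated data with normal noise and 50 changed features at each absolute log2 change of 0.7, 1, 2 and 3. At an absolute log2 change of 0.7 it recovered 34% of changed genes and 0% of changed transcripts. At a change of 1 it recovered 78% and 6%. The Benjamini-Hochberg threshold is looser where more features are called. Only 7 genes were called in the real data, so these shares can overstate recovery here. A gene or isoform that did not pass can therefore still differ. No 2 libraries held identical values. The 3′ UTRs came from GENCODE 29. Sites were read from the GENCODE 29 transcript sequences and placed on GRCh38 by the annotated exon positions.

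The 8 genes and the lists were chosen with earlier results of these data known. Named genes were the 8 members, their transcripts averaging 1 FPKM or more, and from each list the 2 most abundant genes and the 3 with the largest absolute log2 difference, plus the 3 genes with the profile nearest to that of ZFP36. Alternatives were other pseudocounts and filters, median-of-ratios and quantile scaling, library weights, a replicate block and leaving out each library, with the table of all annotated transcripts added after the data were seen. The table of long noncoding RNA was not used here.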

Additional observations from a re-analysis of the deposited data

How the results depend on the processing

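None of the 8 genes passed the adjusted test under any of the alternatives run. The count of called genes was 7, and it was 0 without a filter on low values (1563 at an unadjusted p under 0.05), 0 with a replicate block (1451) and 0 to 8 when 1 library was left out, with 0 without control 2 (1046) or without LPS 2 (1213). The count of called transcripts was 26, and it was 15 without the filter, 0 with the replicate block (1171 at an unadjusted p under 0.05) and 28 to 53 when 1 library was left out. No isoform of the 8 genes was called in the table of all annotated transcripts, an alternative chosen after seeing the data. Same-numbered libraries had correlations of their deviations of 0.0175, 0.105 and 0.0605. Different-numbered libraries had correlations from -0.0840 to -0.0039, except control 1 with LPS 3, at 0.0228. Whether the numbers pair the libraries was not settled, and the main test used no pairing. The log2 difference of ZFP36 ran from -0.98 to -0.58 over all alternatives and that of ZFP36L2 from -0.54 to -0.27. The sign of RC3H1 turned with median-of-ratios scaling (0.0018) and quantile normalization (0.012), and that of HNRNPD with library weights (0.040). CSF2 passed at a pseudocount of 0.1 (4.01, adjusted p = 0.0488 by limma), which gave 1 called mRNA with a decay element, and without LPS 1 (2.43, adjusted p = 0.0404). CSF2 and TNFRSF4 met the filter on low values only through their LPS libraries.
With 1 library left out, the log2 differences whose sign turned ran from -0.11 to 0.062 for ELAVL1, -0.012 to 0.11 for KHSRP, -0.15 to 0.11 for RC3H1, -0.17 to 0.10 for HNRNPD, -0.038 to 0.12 for CCND1, -0.058 to 0.14 for LSM7, -0.31 to 0.066 for PTGS2, -0.51 to 0.021 for LSM5, -0.52 to 0.15 for LSM6, -0.29 to 0.96 for ZFP36L1-201, -0.48 to 1.26 for ZFP36-203, -0.058 to 0.056 for ELAVL1-201, -0.17 to 0.41 for HNRNPD-203 and -0.27 to 0.66 for RC3H1-202. The cause of these shifts was not tested. Depth is unknown, so it cannot be said how much of the spread is counting error, and the 95% intervals of single genes had a median half-width of 0.37 on the log2 scale.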

Other observations

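Over all tested genes, the median log2 difference between LPS and control was -0.01 in 10784 genes without the nonamer UUAUUUAUU in the 3′ UTR, -0.04 in 747 genes with 1 copy, 0.00 in 140 genes with 2 copies and 0.03 in 66 genes with at least 3. The share with a positive difference was 47.9%, 41.1%, 51.4% and 57.6% in the same order. These groups also differed in length, with a median 3′ UTR of 902 bases at 0 copies and 4142 bases at 3 or more, and the differences between them were not tested. ZFP36, ZFP36L1, ZFP36L2 and ELAVL1 each hold 1 copy.

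Of the 30 tested mRNAs of the decay element list, 11 had LPS values above every control and 2, IL6 and DUSP1, below every control. Over all tested genes the groups did not overlap in 17.4%, either direction. The list was chosen with earlier results known, so no enrichment is read from this. IL6 had 8.22 FPKM in control and 6.49 in LPS (log2 difference -0.32, adjusted p = 0.503 by limma). The following mRNAs with higher LPS values were picked after their values were seen. CXCL1, a neutrophil chemokine, had 16.2, 16.0 and 17.7 FPKM in control and 60.9, 29.3 and 27.3 FPKM in LPS (log2 difference 1.11, adjusted p = 0.273 by limma). ICAM1, a leukocyte adhesion molecule, had 44.1, 35.5 and 40.6 FPKM in control and 111, 68.2 and 71.1 FPKM in LPS (1.02, adjusted p = 0.173). LPS 1 was the highest library for both. IL1B, a pro-inflammatory cytokine, had 5.21, 3.44 and 5.27 FPKM in control and 12.5, 8.17 and 21.2 FPKM in LPS (1.41, adjusted p = 0.236), with the highest value in LPS 3.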
